A study of Mus musculus with 10 samples.

Results

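The genes described here encode the initiation and elongation factors of cytosolic translation and the proteins that regulate or modify them directly. They were chosen by symbol, as genes whose names begin with Eif1 to Eif6 or with Eef1 or Eef2, leaving out the eIF2 kinases named Eif2ak. Of the 18193 genes that a probe set named singly, 54 were members, and 51 of the 54 were bright enough to be tested. Each gene was represented by its brightest probe set over the 10 arrays.

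The arrays compared mice lacking Mll, whose gene is now named Kmt2a and whose product methylates lysine 4 of histone H3, with control mice. The 5 Mll-deficient mice had the genotype Mx1-cre;Mll F/F, and the 5 control mice had Mll F/F, so that both groups carried the floxed alleles and the controls had no cre. All were females aged 8 weeks on the B6.SJL-Ptprca Pep3b/BoyJ background, and all received 3 injections of pI:pC, a double-stranded RNA that raises interferon and thereby induces Mx1-cre, at 10 µg per gram plus 50 µg, 48 hours apart. On day 6 LSK/CD48- cells, a bone marrow fraction enriched for hematopoietic stem cells, were sorted and their amplified RNA was put on 1 array per mouse. Interferon acts on many cell types, so Mx1-cre does not limit deletion to stem cells, and an effect of cre itself cannot be told apart from an effect of losing Mll.

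Initiation begins when eIF2, a GTPase of 3 subunits, brings the initiator tRNA to the small ribosomal subunit, which eIF3, eIF1 and eIF1A help to prepare. The eIF4 factors bind the mRNA cap and unwind the leader, start codon selection releases eIF2 with bound GDP, and the exchange factor eIF2B recharges it with GTP. Phosphorylated eIF2 inhibits eIF2B, which slows translation and sets off the integrated stress response. Hematopoietic stem cells are known for a low rate of protein synthesis compared with the progenitors they give rise to.

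Probe sets that named the targeted gene Kmt2a did not separate the groups. The brighter one read 304, 256.5, 255, 52.2 and 211 units on Mll-deficient replicates 1 to 5, against 257, 398.5, 214, 262 and 169.9 units on control replicates 1 to 5, and its log2 difference was -0.38 ± 0.35 (SE, adjusted p = 0.736). The position of these probes with respect to the floxed exons is not given in the sources used here, and the labels are therefore not checked by them. Of 12580 tested genes, 694 passed the test, 473 higher and 221 lower, and centring each array on its median changed this split to 471 higher and 107 lower. Control replicate 5 was the outlying array. It correlated at 0.926 on average with the remaining controls, and its log2 ratio of 3' to middle probe sets of the Gapdh and Actb controls, a measure of RNA quality, was 5.24, where the ratio lay between 2.37 and 3.87 on Mll-deficient arrays and between 1.73 and 3.42 on the other controls. Of 9 tested markers of the stem cell gate, Mecom and Hlf were lower and 7 did not pass. Only 2 of the 9 differences lay above 0, and their median was -0.66 on the log2 scale. Counted at an unadjusted p of 0.05, 5 of the 9 markers were lower and 0 higher, where 10.2% of all tested genes were lower and 10.5% higher. Cd48, which the sort selects against, averaged 124 units on Mll-deficient and 109 units on control arrays, and Kit, which it selects for, averaged 72.3 and 126 units on the same arrays.

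Promoters were available for 43 of the 54 members, in a RefSeq table that gives 250 bases before and 50 bases from each annotated start. Of the genes that passed the test below, Eif2b4, Eif2s2 and Eif3d had an entry, and these are shown because their genes rose together. Capitals mark matches on either strand to CCGGAAG, the core recognised by ETS factors (the shorter runs), or to the element bound by ZNF143 and Ronin (the longer runs). The coordinates are those of GRCm38.p6, and each of the 3 sequences is printed 5′ to 3′ on the minus strand. They lie at chr5:31193090-31193389 for Eif2b4, chr2:154892857-154893156 for Eif2s2 and chr15:77970775-77971074 for Eif3d.
Eif2b4: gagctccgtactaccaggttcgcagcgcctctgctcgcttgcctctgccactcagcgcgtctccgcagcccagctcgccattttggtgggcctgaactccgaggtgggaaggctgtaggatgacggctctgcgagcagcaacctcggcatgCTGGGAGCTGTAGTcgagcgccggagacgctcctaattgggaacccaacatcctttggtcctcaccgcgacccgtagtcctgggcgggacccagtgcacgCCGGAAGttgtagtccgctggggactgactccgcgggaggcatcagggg
Eif2s2: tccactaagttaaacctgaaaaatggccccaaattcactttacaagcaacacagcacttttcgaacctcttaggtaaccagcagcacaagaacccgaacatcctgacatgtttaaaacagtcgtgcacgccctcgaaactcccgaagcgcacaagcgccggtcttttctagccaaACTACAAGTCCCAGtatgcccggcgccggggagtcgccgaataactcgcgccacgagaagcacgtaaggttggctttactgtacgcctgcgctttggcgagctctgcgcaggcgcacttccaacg
Eif3d: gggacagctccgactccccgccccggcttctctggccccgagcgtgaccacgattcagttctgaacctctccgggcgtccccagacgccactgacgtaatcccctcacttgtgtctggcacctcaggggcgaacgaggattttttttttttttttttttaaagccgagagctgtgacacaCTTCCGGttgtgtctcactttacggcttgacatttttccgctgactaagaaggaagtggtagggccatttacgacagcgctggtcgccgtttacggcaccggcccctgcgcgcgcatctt
The longer element was present in the promoters of Eif2b4 and Eif2s2. It occurred in 1.03% of the 32851 promoters of the table and in those of 3 members, the other being Eif3c. The ETS core was found in Eif2b4 and Eif3d, in 8.86% of all promoters and in 18 of the 57 entries of members. CACGTG, the E-box bound by Myc and related factors, was in 7.15% of all promoters and in 14 of the 57. AGATAA, a motif of GATA factors, was in 11.2% of all promoters and in 1 of the 57, that of Eif3c. The motifs were chosen after the expression values were known, and a match is a description of the letters, not of binding.

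Among the 51 tested members, Eif2b3, Eif2b4, Eif2s2 and Eif3d were higher in Mll-deficient cells and 0 were lower in limma (adjusted p under 0.05). The first pair encode subunits of the exchange factor eIF2B, Eif2s2 encodes the beta subunit of eIF2, and Eif3d a cap-contacting subunit of eIF3. These 4 were 7.84% of the tested members, where 5.52% of all tested genes passed, 3.76% as higher and 1.76% as lower. At an unadjusted p of 0.05, 19 members were higher and 0 lower, or 37.3% of the members, where 10.5% of all tested genes were higher and 10.2% lower. The differences of 40 of the 51 members lay above 0, with a median of 0.38 on the log2 scale, against 46.6% of all tested genes and a median of -0.04.

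**Figure D1:**
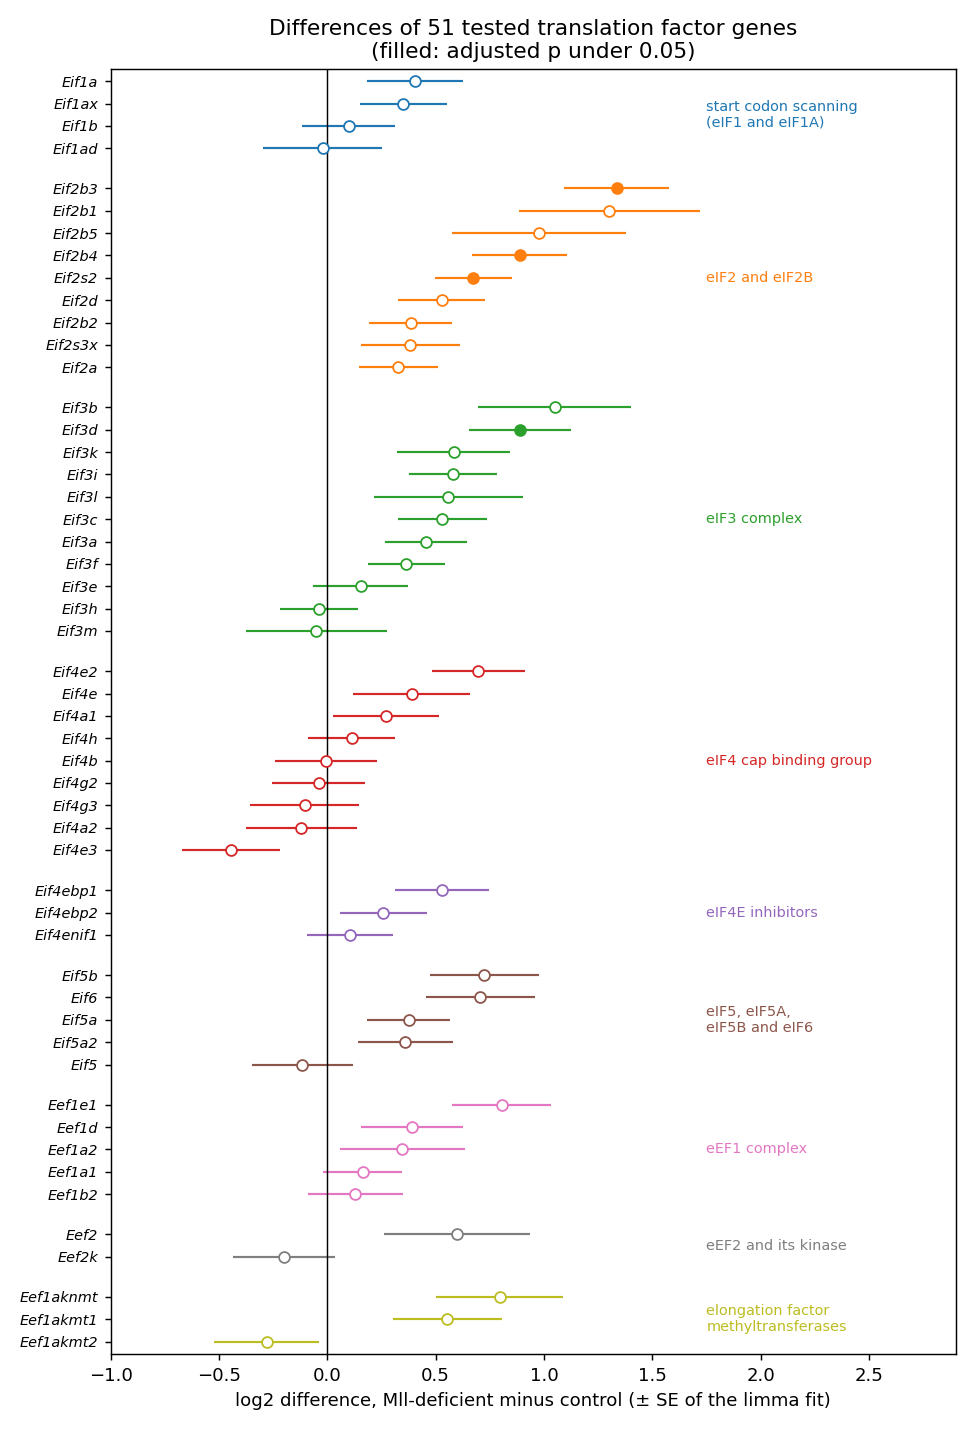
Log2 difference of Mll-deficient minus control arrays (horizontal axis, ± SE) for the 51 tested translation factor genes, grouped by role. Filled symbols mark the 4 genes with an adjusted p under 0.05, and 40 of the 51 symbols lie right of 0.

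The members were bright genes, with a median mean signal at the 92.4th percentile of the tested genes. Of the 1258 tested genes in the top 10% by signal, 52.9% had a difference above 0 and 6.28% passed as higher. The 27 members among them had a difference above 0 in 21 cases, and 2 passed as higher. At an unadjusted p of 0.05, 17.6% of all genes in this class were higher, and 9 of the 27 members, or 33.3%. The median difference in this bright class was 0.38 for the members and 0.04 for all genes. In bulk samples such as these, fewer cells of a type and less RNA per cell cannot be told apart.

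The exchange factor eIF2B consists of 5 different subunits, alpha to epsilon, encoded by Eif2b1 to Eif2b5, and all 5 had a difference above 0. Eif2b3, the gamma subunit, which pairs with epsilon in the catalytic part, read 159.5, 209, 255, 191 and 212 units on Mll-deficient replicates 1 to 5, against 83.8, 115, 57.6, 73.3 and 41.0 units on control replicates 1 to 5. All 5 Mll-deficient arrays lay above all 5 control arrays. The difference was 1.34 ± 0.24 (SE, 2.53-fold, adjusted p = 0.00516), and the group averages were 205 ± 34.6 and 74.2 ± 28.1 units (SD, n = 5 each). Its call held in each of the 10 fits that left out 1 array, where the highest adjusted p was 0.0191.

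Eif2b4, the delta subunit, which senses eIF2 phosphorylation together with alpha and beta, read 1300.4, 1291, 1391, 1365 and 1143 units on Mll-deficient arrays, against 945, 975, 595, 614 and 469 units on control arrays. These groups did not overlap either, and the spread of the control arrays (SD 227 units) was wider than that of the Mll-deficient arrays (SD 96.5 units). The difference was 0.89 ± 0.22 (1.85-fold, adjusted p = 0.0269). The call of Eif2b4 was lost without Mll-deficient replicates 1, 3, 4 or 5 (adjusted p = 0.0572, 0.0648, 0.0551 and 0.0520) and without control replicates 3 or 4 (adjusted p = 0.0741 and 0.0670), although its difference stayed between 0.75 and 1.01 over the 10 such fits.

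Eif2b1, the alpha subunit, at the regulatory core where the complex dimerises, had a similar mean difference with more spread. Its signal was 944, 735, 736, 387 and 594 units on Mll-deficient arrays, against 340.3, 552, 223, 382 and 59.7 units on control arrays. Mll-deficient replicate 4 fell within the control range, and control replicate 5 was far below the other controls. The difference of 1.30 ± 0.42 did not pass (adjusted p = 0.0807). Without control replicate 2 it passed (1.57, adjusted p = 0.0325), and without control replicate 5 it was 0.84 (adjusted p = 0.0793).

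Eif2b5, the catalytic epsilon subunit, ranged from 57.6 to 172 units (median 143) on Mll-deficient arrays and from 5.29 to 98.7 units (median 75.2) on control arrays. Its difference of 0.98 ± 0.40 did not pass (adjusted p = 0.172), and it was 0.56 without control replicate 5 (adjusted p = 0.268) and 0.41 with its 2 probe sets averaged (adjusted p = 0.329). Eif2b2, the beta subunit, read 2863, 2022, 3000.3, 2492 and 2425 units on Mll-deficient arrays, against 1681, 2418, 1968, 1584 and 2158 units on control arrays. The groups overlapped, and the difference of 0.39 ± 0.19 did not pass (adjusted p = 0.267).

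**Figure D2:**
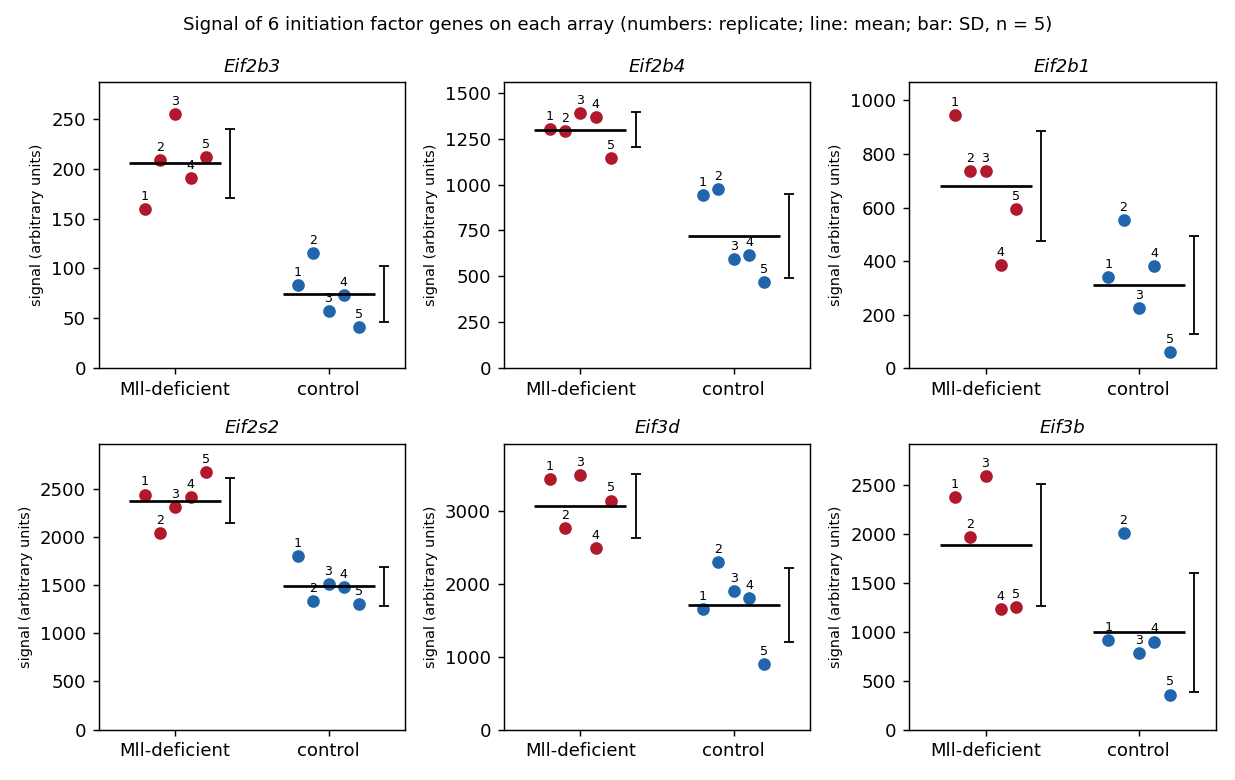
Signal in arbitrary units (vertical axis, from 0) of 6 initiation factor genes on each Mll-deficient (red, left) and control (blue, right) array, with replicate numbers, the mean (line) and the SD (bar, n = 5). The groups do not overlap for Eif2b3, Eif2b4, Eif2s2 and Eif3d, and they overlap for Eif2b1 and Eif3b.

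Of the eIF2 subunits themselves, Eif2s2 read 2439, 2036, 2309, 2409 and 2677 units on Mll-deficient arrays, against 1801, 1329.8, 1510.3, 1484 and 1301 units on control arrays. The lowest Mll-deficient array lay above the highest control array. The difference was 0.67 ± 0.18 (1.597-fold, adjusted p = 0.0364), the smallest of the 4 that passed. The call was lost without Mll-deficient replicates 1, 3, 4 or 5 (adjusted p between 0.0692 and 0.1001) and without control replicates 2, 3 or 4 (adjusted p = 0.0620, 0.0764 and 0.0739). In the fit over probe sets this probe set no longer passed (adjusted p = 0.0545). Another probe set of Eif2s2 did (0.98 ± 0.23, adjusted p = 0.0291), averaging 507 ± 89.3 units on Mll-deficient and 255 ± 84.2 units on control arrays. The other 4 lay at 0.66, 0.51, 0.07 and 0.03 and did not pass (adjusted p between 0.183 and 0.961). Averaging all 6 probe sets of Eif2s2 gave 0.49 and ended the call (adjusted p = 0.0658).

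The gamma subunit of eIF2, which holds the GTP, has an X-linked and a Y-linked gene. The X-linked Eif2s3x read 1919, 2657, 1683, 3104 and 3594 units on Mll-deficient arrays, against 1707, 1503, 2264, 1951 and 2212 units on control arrays. The groups overlapped and the difference of 0.38 ± 0.23 did not pass (adjusted p = 0.369). The Y-linked Eif2s3y was below the filter on signal and read 0.757, 0.626, 3.31, 2.24 and 5.67 units on Mll-deficient arrays, against 0.346, 7.41, 6.78, 7.61 and 11.8 units on control arrays. Its groups overlapped.

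The other members of this group act beside eIF2 in delivering initiator tRNA. Eif2a, an alternative tRNA carrier, ranged from 305 to 387 units on Mll-deficient arrays and from 248 to 285 units on control arrays. Its groups did not overlap, yet the difference of 0.33 ± 0.18 did not pass (adjusted p = 0.327). Eif2d, a factor of reinitiation and recycling, had a difference of 0.53 ± 0.20 (adjusted p = 0.141). Counting eIF2, eIF2B and these factors together, 3 of 9 tested genes rose and 6 did not pass, with a median difference of 0.67. At an unadjusted p of 0.05, 6 of the 9 were higher and 0 lower. Of all tested genes, 10.5% were higher by that measure and 3.76% passed as higher.

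The eIF3 complex is the scaffold that joins the small ribosomal subunit to the mRNA and the other factors, and 11 of its genes were tested. Eif3d read 3449.5, 2769, 3501, 2498 and 3149 units on Mll-deficient arrays, against 1655, 2301, 1905, 1806 and 897 units on control arrays. The groups did not overlap, and control replicate 5 was the lowest. The difference was 0.89 ± 0.24 (1.85-fold, adjusted p = 0.0368). It was 0.68 without control replicate 5 (adjusted p = 0.0315), and the call was lost without Mll-deficient replicates 1, 3 or 5 (adjusted p = 0.0827, 0.0902 and 0.0867) or control replicates 1, 3 or 4 (adjusted p = 0.0779, 0.0619 and 0.0642). Averaging both probe sets of Eif3d, of which 1 was below the filter, gave 0.36 (adjusted p = 0.160), and having no filter gave an adjusted p of 0.0530.

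Eif3b, an RNA-binding subunit of the eIF3 core, had the largest difference of the complex but overlapped between groups. It read 2381, 1969, 2593, 1235 and 1254 units on Mll-deficient arrays, against 918, 2009, 784, 900.5 and 359 units on control arrays. Control replicate 2 lay above 3 Mll-deficient arrays. The difference of 1.05 ± 0.35 did not pass (adjusted p = 0.0968), although it did without control replicate 2 (1.35, adjusted p = 0.0181).

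Eif3i, the partner of Eif3b and Eif3g in the complex, read 6677, 4772, 7777, 6073 and 6059.7 units on Mll-deficient arrays, against 3171, 3908, 4919.7, 3626 and 5498 units on control arrays. Mll-deficient replicate 2 lay within the control range. The difference of 0.58 ± 0.20 did not pass (adjusted p = 0.110), but it passed without control replicate 5 (0.68, adjusted p = 0.0336). Its other probe set averaged 4135 ± 1141 units on Mll-deficient and 1843 ± 681 units on control arrays and passed among probe sets (1.19 ± 0.28, adjusted p = 0.0272). Averaging both gave 0.89, which passed (adjusted p = 0.0161).

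Eif3f, a subunit that carries an MPN domain, read 17056, 13521, 18855, 13851 and 16560.3 units on Mll-deficient arrays, against 9969.5, 12410.2, 13093, 12004 and 14437 units on control arrays. Control replicate 5 was the highest control for this gene, and the difference of 0.37 ± 0.18 did not pass (adjusted p = 0.253). Eif3a, the largest subunit, lay between 5567 and 8379.8 units on Mll-deficient and between 3792 and 5559 units on control arrays, without overlap, at 0.45 ± 0.19 (adjusted p = 0.179). Eif3c, which joins Eif3a in the core, was at 0.53 ± 0.20 (adjusted p = 0.145) and passed without control replicate 5 (0.65, adjusted p = 0.0368).

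Of the remaining subunits, Eif3k, Eif3l and Eif3e were at 0.58, 0.56 and 0.15, while Eif3h and Eif3m were nearest to 0 at -0.04 ± 0.18 and -0.05 ± 0.33 (adjusted p between 0.215 and 0.952). Centring each array on its median turned the last pair to 0.023 and 0.010. In all, 1 of 11 eIF3 genes rose and 10 did not pass, with a median of 0.53. At an unadjusted p of 0.05, 6 of the 11 were higher and 0 lower. Of all tested genes, 10.5% were higher by that measure and 3.76% passed as higher.

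Over the whole set of members, 6 genes had no overlap between groups, all higher in Mll-deficient cells. They were the 4 that passed together with Eif2a and Eif3a, or 11.8% of the tested members, where 4.42% of all tested genes were higher without overlap and 2.54% lower. The other probe sets of Eif2a and Eif3a above the filter overlapped between groups. In the fit over probe sets, that of Eif2a was at 0.22 (adjusted p = 0.749). Those of Eif3a were at -0.10, 0.48 and -0.12 (adjusted p = 0.878, 0.374 and 0.906).

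**Figure D3:**
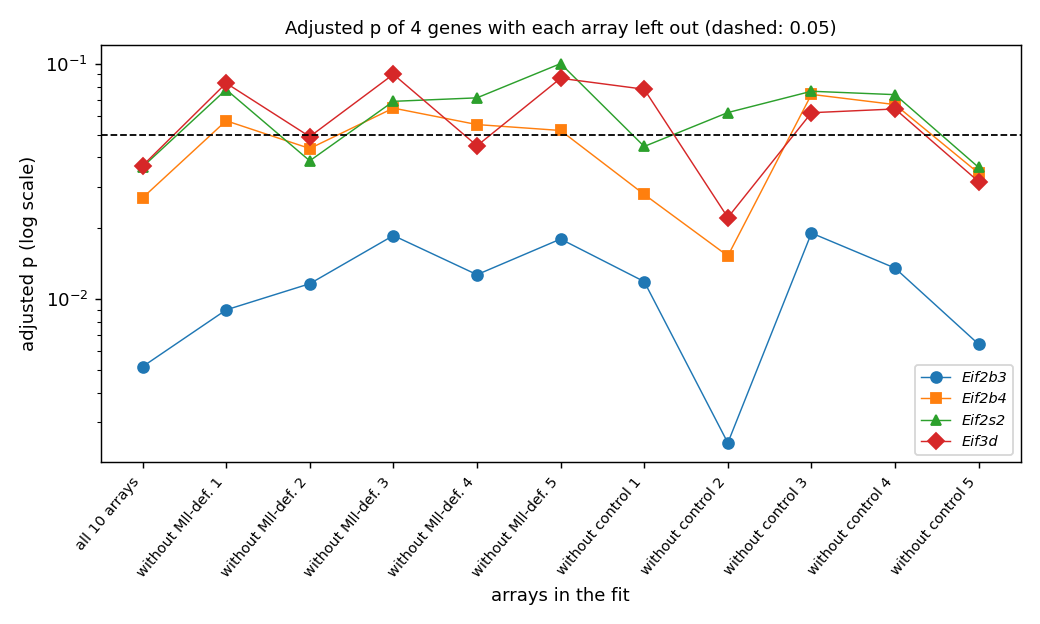
Adjusted p (log axis) of the 4 genes that passed, in the fit to all 10 arrays and in the fits without each array. Eif2b3 stays below the dashed line at 0.05 in all of these fits, and Eif2b4, Eif2s2 and Eif3d cross it in 6, 7 and 6 of the 10.

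The eIF4 factors recruit mRNA through its cap, and as a group their brightest probe sets showed no common direction. Of 9 tested genes 0 passed in limma, 1 had an unadjusted p under 0.05, and the median difference was -0.01. Eif4e2, a cap-binding homologue that is known for repressing translation, was the nearest, with 2318, 2204, 2628, 1883 and 2937 units on Mll-deficient arrays, against 1230.0, 2019.7, 1312, 1835 and 1084 units on control arrays. Only Mll-deficient replicate 4 lay within the control range. The difference of 0.70 ± 0.22 did not pass (adjusted p = 0.0703), but without control replicate 2 it did (0.81, adjusted p = 0.0381). Averaging its 5 probe sets gave 0.22 (adjusted p = 0.405).

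Eif4e, the main cap-binding protein, was at 0.39 ± 0.27 (adjusted p = 0.453). The helicase genes Eif4a1 and Eif4a2 were at 0.27 ± 0.25 and -0.12 ± 0.26 (adjusted p = 0.585 and 0.842), and their cofactors Eif4b and Eif4h at -0.01 ± 0.23 and 0.11 ± 0.20. In the fit over probe sets, the others of Eif4a1 were at 1.06 ± 0.29 and 0.04 ± 0.26 (adjusted p = 0.0542 and 0.958). Those of Eif4b were at 0.75 ± 0.23, without overlap, and 0.43 ± 0.21 (adjusted p = 0.0839 and 0.293). Those of Eif4h lay between -0.06 and 0.18. Eif4g2, which encodes a scaffold protein that lacks the eIF4E binding site, read 13605, 11786, 14634, 13341 and 11055 units on Mll-deficient arrays, against 11302, 10542, 13223, 11077 and 22709 units on control arrays. Control replicate 5 was far above all other arrays, and the difference of -0.04 ± 0.21 (adjusted p = 0.941) was 0.16 without it (adjusted p = 0.572).

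Eif4e3, another cap-binding homologue, had the lowest difference of the members. It ranged from 1241 to 2977 units (median 2080.2) on Mll-deficient arrays and from 2095 to 3211 units (median 2861) on control arrays. The difference of -0.45 ± 0.23 did not pass (adjusted p = 0.277), while its other probe set passed as lower among probe sets (-0.78 ± 0.21, adjusted p = 0.0492) with averages of 362 ± 56.6 units on Mll-deficient and 638 ± 119 units on control arrays. Eif4a3, a helicase of the exon junction complex, was below the filter on its only singly named probe set, with 1.12 to 19.8 units over the 10 arrays, whereas a probe set shared with the predicted gene Gm5576 averaged 2347 ± 319 units on Mll-deficient and 1609 ± 469 units on control arrays (0.59 ± 0.24, adjusted p = 0.187).

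All 3 inhibitors of eIF4E had differences above 0, of which 0 passed in limma and 1 had an unadjusted p under 0.05. Eif4ebp1, which sequesters eIF4E until mTOR phosphorylates it, read 3193, 2192, 4873, 3043 and 3112 units on Mll-deficient arrays, against 1669, 2318, 2595, 2169.9 and 2352 units on control arrays. Mll-deficient replicate 2 lay within the control range, and the difference of 0.53 ± 0.22 did not pass (adjusted p = 0.175). Eif4ebp2 and Eif4enif1, a protein that carries eIF4E into the nucleus, were at 0.26 ± 0.20 and 0.11 ± 0.20 (adjusted p = 0.511 and 0.816).

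Factors of scanning and start codon choice include eIF1 and eIF1A, and 4 genes named after them were tested. Of these, 0 passed in limma, also at an unadjusted p of 0.05. Eif1ax, which encodes eIF1A, read 1814, 1938, 1939, 2556 and 2459 units on Mll-deficient arrays, against 1999, 1137, 1735, 1775 and 1789 units on control arrays. The groups overlapped through control replicate 1, and the difference was 0.35 ± 0.20 (adjusted p = 0.346). Eif1a, Eif1b and Eif1ad were at 0.41, 0.10 and -0.02 (adjusted p between 0.322 and 0.976). The other probe set of Eif1ad was at 0.65 ± 0.23, without overlap, and did not pass in the fit over probe sets (adjusted p = 0.136).

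The later initiation steps and the hypusine-bearing factor eIF5A gave no call in limma either, and 2 of the 5 genes were higher at an unadjusted p of 0.05. Eif5b, the GTPase that joins the ribosomal subunits, read 155, 122, 110.1, 157 and 216 units on Mll-deficient arrays, against 71.3, 51.05, 121, 117 and 74.9 units on control arrays. Only Mll-deficient replicate 3 lay below the highest control, and the difference of 0.73 ± 0.25 did not pass (adjusted p = 0.109). In the fit over probe sets, the others of Eif5b were at 0.21 ± 0.25 and -0.49 ± 0.28 (adjusted p = 0.722 and 0.379). Eif6, which keeps the large subunit from joining too early, was at 0.71 ± 0.25 (adjusted p = 0.116), with 3319 to 4759 units on Mll-deficient and 1256 to 3495 units on control arrays.

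Eif5a, which helps ribosomes past difficult peptide bonds, read 11669.8, 11989, 15005, 10625 and 10733 units on Mll-deficient arrays, against 11365, 10495, 10319, 7227 and 7309.5 units on control arrays. Its difference was 0.38 ± 0.19 (adjusted p = 0.283). Its paralog Eif5a2 was dim, at 34.7 ± 13.2 units on Mll-deficient and 22.6 ± 3.90 units on control arrays. Eif5, the GTPase activator of eIF2, was at -0.11 ± 0.23 (adjusted p = 0.835).

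Of the 5 eEF1 genes and of Eef2 and its kinase gene, 0 passed in limma, and 1, Eef1e1, had an unadjusted p under 0.05. Eef1a1, which delivers aminoacyl-tRNA to the ribosome, read 14745, 16571, 14239.8, 11837 and 20173 units on Mll-deficient arrays, against 13414, 12429, 14941, 15672 and 12078 units on control arrays. The arrays were intermixed, the difference was 0.16 ± 0.18 (adjusted p = 0.673), and quantile normalization turned it to -0.059. Eef1a2, the form of muscle and nerve, had a mean of 13.95 units over the 10 arrays, just above the filter, and a difference of 0.35 ± 0.29 (adjusted p = 0.542).

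The exchange factor genes Eef1b2 and Eef1d were at 0.13 ± 0.22 and 0.39 ± 0.23 (adjusted p = 0.796 and 0.371). Averaging the 4 probe sets of Eef1d gave 0.71, which passed (adjusted p = 0.0189). A dim probe set of Eef1d passed among probe sets (1.38 ± 0.28, adjusted p = 0.0150), averaging 68.8 ± 28.3 units on Mll-deficient and 15.9 ± 8.65 units on control arrays. Eef1e1, a component of the multi-synthetase complex rather than an exchange factor, came nearest to passing. It read 483, 730.1, 436, 822 and 807 units on Mll-deficient arrays, against 348, 282, 473, 339 and 363 units on control arrays. Only Mll-deficient replicate 3 lay below the highest control. The difference of 0.80 ± 0.23 did not pass (adjusted p = 0.0517), and without Mll-deficient replicate 3 it did (0.94, adjusted p = 0.0405).

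Eef2, the GTPase that moves the ribosome along the mRNA, read 4023, 5228, 4638, 2431 and 3889.7 units on Mll-deficient arrays, against 3457, 4852, 2544, 2752 and 973 units on control arrays. Control replicate 5 was the lowest array, and the difference of 0.60 ± 0.34 (adjusted p = 0.338) was 0.25 without it (adjusted p = 0.574). Its inhibitory kinase gene Eef2k was at -0.20 ± 0.24 (adjusted p = 0.694).

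Among the methyltransferases that modify elongation factors, Eef1akmt1 read 849, 744, 1254, 1109.7 and 1591 units on Mll-deficient arrays, against 522, 770.0, 899, 545 and 1003 units on control arrays. The groups overlapped and the difference of 0.55 ± 0.25 did not pass (adjusted p = 0.216). Eef1aknmt and Eef1akmt2 were at 0.80 ± 0.29 and -0.28 ± 0.24 (adjusted p = 0.128 and 0.561), and Eef2kmt was below the filter. Eef1aknmt was dim, at 40.4 ± 6.55 units on Mll-deficient and 19.2 ± 15.2 units on control arrays. In the fit over probe sets its others were at 0.08 ± 0.26 and 0.31 ± 0.23 (adjusted p = 0.911 and 0.506). Of the 3 tested methyltransferase genes 0 passed in limma and 2 were higher at an unadjusted p of 0.05.

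The members were also compared by array, since the arrays of a group differed. Control replicate 5 was the lowest control for 20 of the 51 tested members and the highest for another 20. The same array had the highest 3' to middle ratio, and the part of RNA quality in these values was not tested. The median SD of the members over control arrays was 0.41 on the log2 scale with that array and 0.27 without it, and over Mll-deficient arrays it was 0.28. Without control replicate 5 the count of members passing was 6, all higher, or 11.8% of them, where 4.4% of all tested genes passed as higher. These were the 4 named above, Eif3c and Eif3i. The count was 4 without Mll-deficient replicate 2, 1 without Mll-deficient replicates 1 or 5 or control replicates 3 or 4, 2 without Mll-deficient replicates 3 or 4, 3 without control replicate 1 and 6 without control replicate 2. Where 1 member passed, 242 to 313 of the 12580 tested genes passed as higher. The range was 266 to 502 without Mll-deficient replicates 2, 3 or 4 or control replicates 1 or 2. With the 3' to middle ratio as a covariate, 14 members passed, all higher, or 27.5%, where 7.69% of all tested genes passed as higher.

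**Figure D4:**
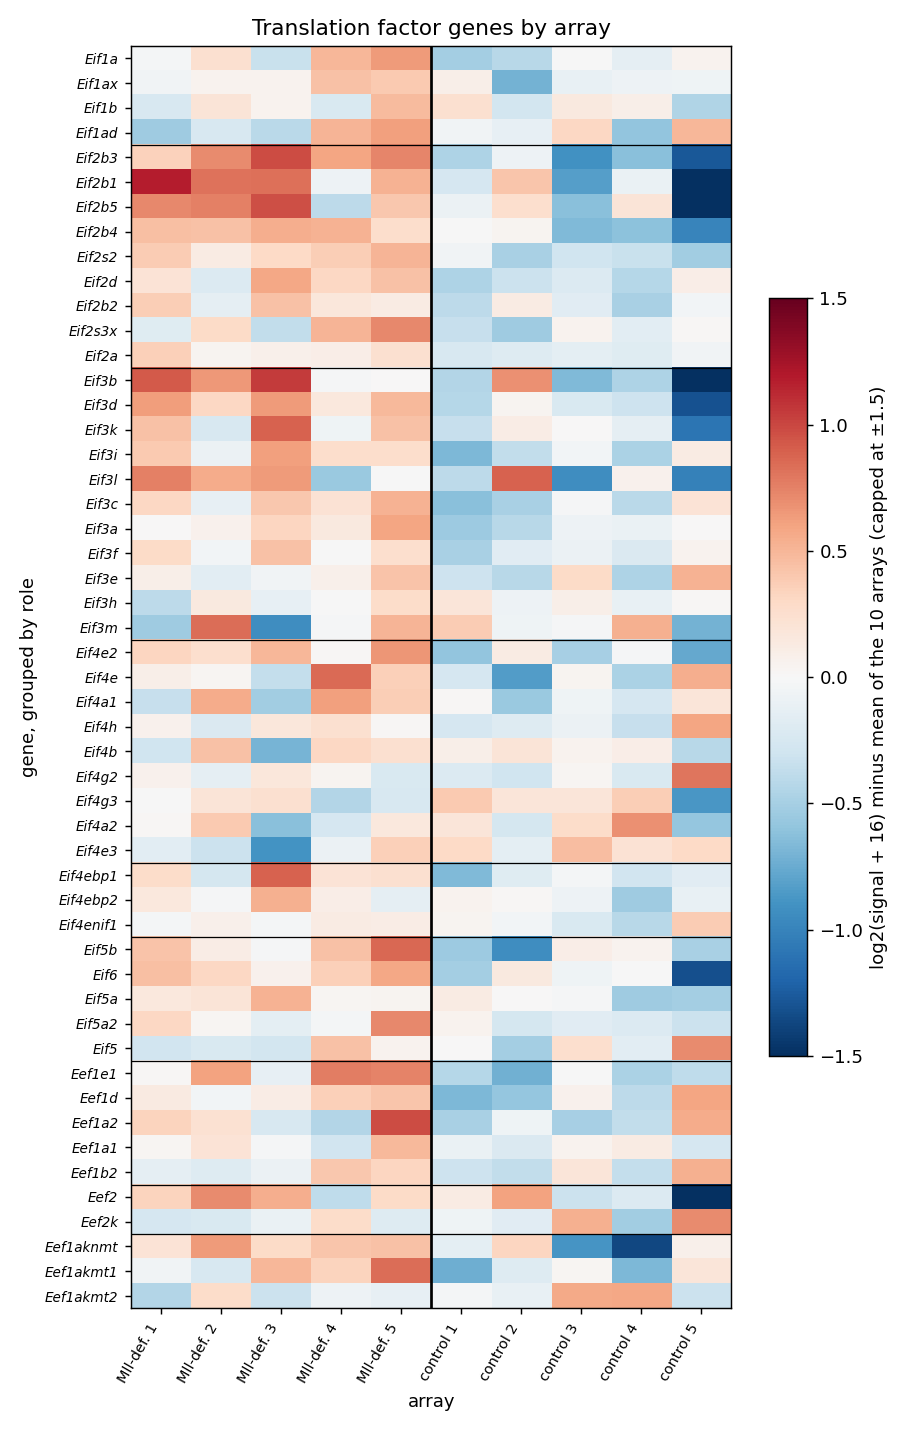
Log2(signal + 16) of each tested member on each array, minus its mean over the 10 arrays (colour, capped at 1.5 in both directions), with Mll-deficient arrays left of the black line and genes grouped by role. The eIF2 and eIF3 blocks are mostly red on Mll-deficient arrays, and control replicate 5 holds both the darkest blue cells and several red ones.

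Most genes had several probe sets, and 124 probe sets of members were above the filter. Tested as features of their own, 6 of them passed as higher and 1 as lower, or 4.84% and 0.806%, where 2.12% of all 27022 tested probe sets passed as higher and 1.16% as lower. Of the 73 probe sets other than a member's brightest, 53 had a difference of the same sign as the brightest.

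Neighbouring genes of the pathway were listed by function. Among all tested genes, 3.76% passed as higher and 1.76% as lower, the shares beside which the counts of these lists stand. By an unadjusted p of 0.05, the shares were 10.5% and 10.2%. Of 8 tested termination and recycling factors 0 passed in limma, 2 were higher at an unadjusted p of 0.05, and the median was 0.46. Etf1, the release factor that reads stop codons, was at 0.69 ± 0.22 (adjusted p = 0.0764), and Pelo, which rescues stalled ribosomes, at 0.97 ± 0.31 (adjusted p = 0.0772). Of 10 genes of eIF2 kinases, their activator Gcn1 and the eIF2 phosphatase, 0 passed in limma (1 higher and 2 lower at an unadjusted p of 0.05), with a median of 0.01. The kinase gene Eif2ak3 was at -0.55 ± 0.23 (adjusted p = 0.181).

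Of 14 target genes of the integrated stress response, 2 rose, 1 fell and 11 did not pass. Asns, asparagine synthetase, had 1750.0, 758, 1752, 1213 and 1712 units on Mll-deficient arrays, against 377, 586, 428, 469 and 651 units on control arrays. No array of one group reached the range of the other, and the difference was 1.45 ± 0.25 (adjusted p = 0.00397). Shmt2, a mitochondrial enzyme of serine and folate metabolism, rose by 1.27 ± 0.23 (adjusted p = 0.00496), and Vldlr, a lipoprotein receptor, fell by 1.40 ± 0.31 (adjusted p = 0.0161). The list median was -0.14. Atf4, the factor that drives the response, was at 0.03 (adjusted p = 0.968), chosen for mention after its value was seen.

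Of 12 genes of mTOR and Mnk control, Mknk2, a kinase of eIF4E, rose by 0.82 ± 0.22 (adjusted p = 0.0382) and 11 did not pass. Of 7 poly(A) binding proteins and their partners, Pabpc4 rose by 1.39 ± 0.21 (adjusted p = 0.00124), with 1044 to 1505 units on Mll-deficient arrays and 387 to 704 units on control arrays, and 6 did not pass. Of 9 enzymes that make hypusine on eIF5A or diphthamide on eEF2, Dohh, which completes hypusine, rose by 0.95 ± 0.27 (adjusted p = 0.0466). Of 4 nascent chain and TOP mRNA proteins 0 passed in limma (1 higher at an unadjusted p of 0.05), with Naca at 0.68 ± 0.30 (adjusted p = 0.202).

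Factors of mitochondrial translation form a parallel set, and 2 of 9 tested rose. Tufm, the mitochondrial counterpart of eEF1A, read 1345, 886, 1254, 1443 and 1262 units on Mll-deficient arrays, against 408, 625, 677, 605 and 517 units on control arrays. It rose by 1.11 ± 0.21 (adjusted p = 0.00611), without overlap. Gfm1, the mitochondrial translocase, rose by 1.07 ± 0.22 (adjusted p = 0.0106), and the list median was 0.29.

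Markers of other cells and of cycling moved between the same groups. Their counts stand beside shares of 3.76% higher and 1.76% lower among all tested genes, or 10.5% and 10.2% at an unadjusted p of 0.05. Of 21 tested erythroid genes 15 were higher and 0 lower, and the summed signal of the list lay between 20569.7 and 23152 units on Mll-deficient arrays and between 4864 and 10334 units on control arrays. Klf1, an erythroid transcription factor, was at 3.00 ± 0.27 (adjusted p = 2.52e-05), and all 21 genes had a signal above the filter. Of 20 S phase genes 5 were higher and 0 lower, with summed signals of 52413 to 67452 units on Mll-deficient and 39853 to 63534 units on control arrays. The differences of 19 of the 20 lay above 0, with a median of 0.47. At an unadjusted p of 0.05, 10 were higher and 0 lower. Of 18 granulocyte and monocyte genes 0 passed in limma (4 higher and 2 lower at an unadjusted p of 0.05), with sums of 135148 to 231727 units on Mll-deficient and 136602 to 185938 units on control arrays. Of 12 megakaryocyte genes 0 passed in limma (3 lower at an unadjusted p of 0.05), with sums of 2003 to 3596 units on Mll-deficient and 2473 to 5880.2 units on control arrays. Of 10 lymphoid genes Il7r was lower and 9 did not pass, while Cd3e, Cd3g, Cd4 and Rag2 were below the filter. The list summed to between 2401 and 6484 units on Mll-deficient and between 4270.0 and 9788 units on control arrays. The part of any of these cells in the differences of the translation factors was not tested.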

How the data were processed

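RNA of LSK/CD48- cells from 5 Mll-deficient and 5 control mice was measured on Affymetrix mouse arrays, 1 per mouse. What the authors deposited are intensities on a linear scale, 1 for each probe set, from MAS5 5.0 per the submitters' processing notes. Other steps are not given in the sources used here. Every array had a mean of 150.001 after trimming 2% at each end, so each was scaled to 1 constant, which removes differences in total RNA per cell. Amplification of little RNA favours the 3' ends of transcripts. Precision is limited by the number of arrays. The p-values measure the spread between arrays, in which differences between mice and between technical steps cannot be separated.

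Platform annotation gave 34958 of 45101 probe sets a single symbol and 932 several. Symbols were updated through the RefSeq table of GRCm38.p6, in which 34754 matched. The deposited intensities were taken as log2(signal + 16), which understates changes of dim genes, and the brightest probe set represented a gene. Genes averaging more than the 40th percentile of probe sets (12.2 units), 12580 in number, were tested in R 4.3.3 by limma 3.58.1 (lmFit, then eBayes with trend). Tests were two-sided, and p-values were adjusted by Benjamini-Hochberg over these genes. Every adjusted p is from this fit or a named alternative, and Kmt2a is from a fit over all probe sets without a filter. The procedure was tested on simulated data.

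The members, lists and alternatives were chosen with earlier results of these data known. Values of every array are given for members that passed, filled to 10 by smallest p, the brightest tested gene of each role, Eif2s3x and Eif2s3y. From each list up to 3 genes with the smallest p are named. Same-numbered arrays of the groups were treated as unpaired. Correlations of their deviations from the group means lay between -0.23 and 0.28, which cannot show whether arrays were processed in sets. Alternatives varied offset, scaling, filter, probe sets, variance prior, array weights, replicate block, RNA quality, threshold and arrays.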

Additional observations from a re-analysis of the deposited data

Results flagged for a closer look

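Single arrays lay far from the others of their group, relative to the group's range on the log2 scale (Dixon's criterion), in 5 of the 102 sets of 5 arrays examined for the tested members, where chance gives about 1 in 20. Of these, 3 concerned control replicate 5: Eif4b at 1370.1 units and Eif4g3 at 319 units were its lows, below 1897 and 680.2 units on the next arrays, and Eif4h at 17111 units was its high, above 10626 units. Eif1ax was low on control replicate 2, at 1137 units, with the next at 1735 units. Eef2k was high on Mll-deficient replicate 4, at 3639 units, with the next at 2803 units.

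Probe sets that name several genes were outside the comparison, and 8 of them include an initiation or elongation factor. Of the 7 above the filter, 1 passed in the fit over probe sets, a probe set shared by Eif3j1 and Eif3j2, whose products are a loosely bound subunit of eIF3. It read 239, 188, 332, 259.7 and 362 units on Mll-deficient arrays, against 129, 113.0, 115, 159.9 and 148 units on control arrays, a difference of 0.95 ± 0.23 (SE, adjusted p = 0.0287) without overlap. Of the 3 probe sets shared by these genes, another averaged 165 ± 56.7 units on Mll-deficient and 144 ± 44.0 units on control arrays, with overlap and a difference of 0.16 ± 0.26 (adjusted p = 0.803).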

How the results depend on the processing

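The count of members passing as higher, 4 with all arrays, was 3 to 6 in the alternatives that kept all arrays and the threshold, apart from 14 with the RNA quality covariate, and 8 at an adjusted p of 0.10. It lay between 1 and 6 over the fits that left out 1 array. No member passed as lower in these gene-level fits, and 1 probe set did when each was tested on its own, an alternative added after the data were seen. The count over all genes, 694, was 1610 with the RNA quality covariate, 1187 at 0.10, and between 317 and 875 with 1 array left out. The median difference of the members stayed between 0.34 and 0.44 in all of these fits. With the replicate block, 5 members passed (Eif2b1, Eif2b3, Eif2b4, Eif3b and Eif3d) and 588 genes in all, and 1 of 5 Mll-deficient arrays correlated best with its own number. Eif2s2 lost its call with the block, without the intensity trend, with averaged probe sets and with each probe set tested on its own (adjusted p = 0.0744, 0.0529, 0.0658 and 0.0545). Averaged probe sets also ended the call of Eif3d and brought calls for Eef1d, Eef1e1 and Eif3i. The cause was not tested.

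Signs turned for 11 members, whose main differences lay near 0 and of which 0 passed in any of these fits. Quantile normalization gave -0.059 for Eef1a1 and -0.024 for Eif4h. Median centring gave 0.023 for Eif3h, 0.010 for Eif3m, 0.021 for Eif4g2, 0.055 for Eif4b and 0.040 for Eif1ad. Averaged probe sets gave 0.019 for Eif4g3, 0.20 for Eif4g2, 0.39 for Eif4b and 0.32 for Eif1ad. Array weights gave 0.087 for Eif4g2 and 0.068 for Eif1ad, and the RNA quality covariate 0.017 for Eif4b. With 1 array left out, the differences ranged from -0.11 to 0.055 for Eif3h, -0.27 to 0.18 for Eif3m, -0.28 to 0.035 for Eif4a2, -0.12 to 0.16 for Eif4g2, -0.12 to 0.17 for Eif4b, -0.26 to 0.048 for Eif5, -0.0064 to 0.17 for Eif1b and -0.18 to 0.11 for Eif1ad.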

Other observations

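Another bright probe set outside the comparison is shared by Eef1g, a subunit of the eEF1 exchange complex, and the predicted gene Gm29753. It averaged 13617 ± 2085 units on Mll-deficient and 8802 ± 1800 units on control arrays (SD, n = 5 each). Its 5 Mll-deficient arrays all lay above the 5 control arrays, and the difference of 0.64 ± 0.19 (SE) did not pass (adjusted p = 0.0789). The brightest probe set shared by Eif3j1 and Eif3j2 averaged 2045 ± 139 units on Mll-deficient and 1386 ± 215 units on control arrays, also without overlap, at 0.57 ± 0.19 (adjusted p = 0.107).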
